A study of Mus musculus with 3 samples.

Results

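The antioxidant and glutathione enzymes measured here were the non-control probes whose gene name in the scanner files is that of a glutathione transferase (classes alpha, kappa, mu, omega, pi, theta and zeta), a microsomal glutathione transferase, a glutathione peroxidase, a peroxiredoxin, a superoxide dismutase, a thioredoxin, a thioredoxin reductase or a glutaredoxin, or is Cat, Gsr, Gclc, Gclm, Gss, Nqo1, Srxn1 or Nfe2l2. This rule on names took 82 of 41169 probes, which stand for 54 of 27665 genes. It reads no measured value, but it was chosen with earlier results of these data known. Muscle RNA of male mice, given as 6 weeks old, was profiled after 14 days in 3 groups: normal food without swimming, normal food with swimming, and swimming with food that held 0.5% Chlorella powder, a unicellular green alga. RNA of 10 mice per group was pooled and hybridised to 1 single-colour Agilent array, so each group is 1 measurement with no spread between mice, and no test between groups was possible. No source used here names the strain, the muscle taken or how the mice were caged.

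Cells remove superoxide with superoxide dismutases, and remove the hydrogen peroxide so formed with catalase, glutathione peroxidases and peroxiredoxins. Glutathione peroxidases draw their electrons from glutathione, which glutathione reductase (Gsr) recycles with NADPH, while most peroxiredoxins draw theirs from thioredoxin and its reductases. Glutathione transferases couple glutathione to reactive compounds, among them products of lipid peroxidation. The transcription factor Nrf2 (Nfe2l2), held back by Keap1, pairs with small Maf proteins on antioxidant response elements and drives many of these genes. In skeletal muscle, contraction itself produces oxidants.

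The values are scaled signals: the processed intensity of a gene's brightest probe, after the 75th percentile of each array was brought to that of the nonswimming array (285.9). A log2 ratio is the difference of these signals on the log2 scale, and the value after ± is its error from the scanner software, built from the spots compared, with no part for differences between mice. A gene was taken as measured in a comparison if its spots were well above background, the scanner software's flag, on both arrays, and as higher or lower if it also differed at least 2-fold. The 3 comparisons share arrays and are not independent of each other. Of the 54 genes, 50 were well above background on all 3 arrays. Gstm6 was dim on the Chlorella array, Gsta2 and Gpx6 on the nonswimming and Chlorella arrays, and Gpx5 on all 3.

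The genes with the largest differences were glutathione transferases of the alpha class, microsomal transferase 2 and plasma glutathione peroxidase (Gpx3), all highest on the swimming array with normal food, and Srxn1, highest on the nonswimming array. The 250 bases before the start of these genes are shown and were searched for the antioxidant response element, through which Nrf2 acts. Sites farther from the start were not searched. The windows are from RefSeq, and capitals mark a match to TGACNNNGC, the form of the element's core that was searched, on either strand.
Gsta1, GRCm38.p6 chr9:78230419-78230668, plus strand: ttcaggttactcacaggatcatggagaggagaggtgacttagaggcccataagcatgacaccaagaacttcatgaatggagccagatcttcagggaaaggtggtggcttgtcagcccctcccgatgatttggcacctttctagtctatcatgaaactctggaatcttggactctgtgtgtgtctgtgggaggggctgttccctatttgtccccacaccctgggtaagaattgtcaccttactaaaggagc
Gsta2, GRCm38.p6 chr9:78347146-78347395, minus strand: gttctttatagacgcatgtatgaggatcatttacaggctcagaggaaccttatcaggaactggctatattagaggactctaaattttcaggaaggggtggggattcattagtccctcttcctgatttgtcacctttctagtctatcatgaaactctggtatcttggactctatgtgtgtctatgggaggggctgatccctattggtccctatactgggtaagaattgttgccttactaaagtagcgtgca
Gsta3, GRCm38.p6 chr1:21240335-21240584, plus strand: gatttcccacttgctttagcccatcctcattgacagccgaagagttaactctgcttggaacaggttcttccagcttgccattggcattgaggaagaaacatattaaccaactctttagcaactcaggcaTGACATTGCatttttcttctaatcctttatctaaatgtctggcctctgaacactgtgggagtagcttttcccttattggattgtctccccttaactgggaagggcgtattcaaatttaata
Mgst2, GRCm38.p6 chr3:51660929-51661178, plus strand: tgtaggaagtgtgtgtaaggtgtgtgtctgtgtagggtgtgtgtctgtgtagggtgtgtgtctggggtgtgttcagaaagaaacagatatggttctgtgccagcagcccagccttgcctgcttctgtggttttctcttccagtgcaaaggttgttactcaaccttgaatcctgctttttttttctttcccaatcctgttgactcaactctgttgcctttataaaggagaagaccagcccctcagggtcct
Gpx3, GRCm38.p6 chr11:54902604-54902853, plus strand: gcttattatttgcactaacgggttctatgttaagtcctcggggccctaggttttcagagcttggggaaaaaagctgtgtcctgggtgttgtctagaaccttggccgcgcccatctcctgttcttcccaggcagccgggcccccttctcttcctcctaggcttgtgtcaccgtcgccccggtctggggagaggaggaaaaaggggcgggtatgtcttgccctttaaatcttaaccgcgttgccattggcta
Srxn1, GRCm38.p6 chr2:152105274-152105523, plus strand: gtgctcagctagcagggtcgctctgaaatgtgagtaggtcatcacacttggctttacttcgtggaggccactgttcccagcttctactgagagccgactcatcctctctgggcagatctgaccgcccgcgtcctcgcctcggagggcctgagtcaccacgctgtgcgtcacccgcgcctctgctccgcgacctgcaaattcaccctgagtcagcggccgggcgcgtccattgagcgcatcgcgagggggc

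Of these 6 windows, that of Gsta3 held a match, TGACATTGC on the gene's strand, starting at position -121 from the gene's start. The Srxn1 window held TGAGTCAGC, with a G where the searched letters have the C of TGAC. Such forms were not counted. RefSeq windows were found for 48 of the 54 genes, and 9 of their 66 windows held a match, 13.6%, beside 10.2% of all 32851 windows of the same length. The genes with a match were Gclm, Gsta3, Gstm5, Gstm7, Mgst1, Nfe2l2, Prdx1, Sod1 and Txnrd1. The search used these letters and their reverse complement, a TGACTCA site of AP-1 that is followed by GC matches it too, and a match is a description of letters only.

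The first comparison, of swimming with nonswimming mice on normal food, asks what the exercise did. Here 4 of the 51 measured genes, Gsta1, Gsta3, Mgst2 and Gpx3, were higher after swimming by 2-fold or more, which is 7.84% beside 5.14% of all 15661 measured genes. None was lower by that much, beside 1.07% of all genes. The second comparison, of Chlorella with normal food in swimming mice, asks what the food did. Here 4 of 50, again Gsta1, Gsta3, Mgst2 and Gpx3, were lower with Chlorella by 2-fold or more, 8% beside 4.86% of 15508, and none was higher, beside 1.37%; this comparison uses the swimming array of the first one, so the recurrence of the names is no separate evidence. In the outer pair, Chlorella swimming against nonswimming, Srxn1 was the one gene lower by 2-fold or more, 2% of 50 beside 1.49% of 15336, and none was higher, beside 2.07%. These shares lie near those of all genes, so the counts say nothing particular about these enzymes. After centring each array on its median, the first comparison gave 3 higher and 1 lower, with 4.29% and 1.76% of all genes, and the second gave none higher and 3 lower, with 2% and 4.10%. With quantile normalization the second gave 5 lower, with Mgst1 added, beside 4.48% of all genes.

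**Figure D1:**
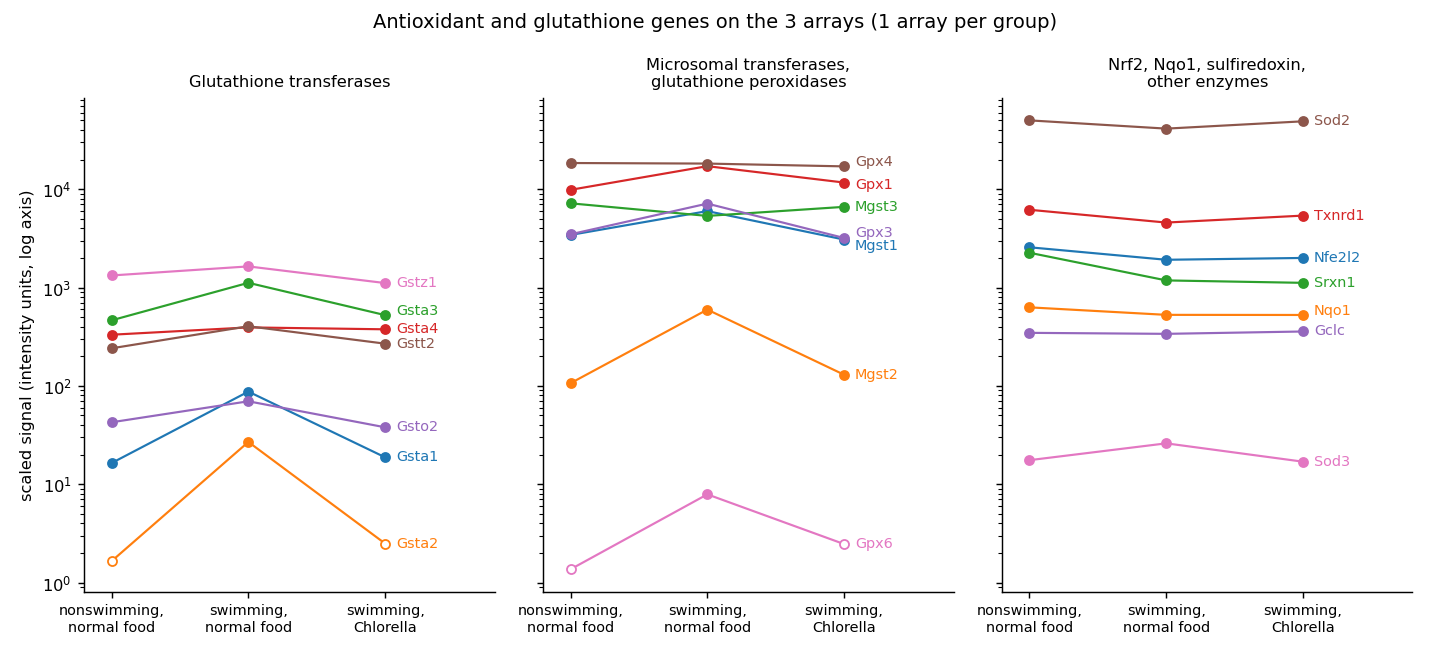
Scaled signal (intensity units, log axis) of 21 genes on the 3 arrays, 1 array per group; filled points are well above background, open points are not, and lines only join the points of a gene. Gsta1, Gsta2, Gsta3, Mgst2 and Gpx3 peak on the swimming array with normal food, whereas Srxn1 is highest on the nonswimming array.

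The alpha class transferases detoxify products of lipid peroxidation and are best known from liver, kidney and other epithelia. Gsta1 had a scaled signal of 16.4 on the nonswimming, 87.5 on the swimming and 18.8 on the Chlorella array. Its log2 ratio was 2.41 ± 0.23 for swimming against nonswimming and -2.22 ± 0.23 for Chlorella against normal food. The swimming array thus stood alone, and the Chlorella array differed from the nonswimming array by 0.19 ± 0.26, less than the spot error. Its signal outside the swimming array was dim, and with normexp background correction the ratios were 1.01 and -0.87.

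Gsta2 had 1.65, 26.9 and 2.49, and of these the swimming value alone was well above background. Against the lowest signal well above background on the dim array, Gsta2 was 4.17-fold higher after swimming than without it. With Chlorella it was 3.58-fold lower than with normal food. These bounds are no strict minima, since some probes above that lowest signal did not pass either. Of all 1586 genes well above background on only 1 array of the first comparison, 24.6% were bounded at 2-fold or more in the first direction, and of 1604 in the second comparison 26% were bounded at 2-fold or more lower. Gsta1 and Gsta2 are close paralogs, so part of a signal may be shared between their probes.

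Gsta3 had 464 on the nonswimming, 1117 on the swimming and 524 on the Chlorella array. Its ratios were 1.27 ± 0.20 and -1.09 ± 0.20, and its second probe gave 1.08 and -1.14. Both probes therefore placed the swimming array highest, and after median centring the second ratio was -0.96, under the 2-fold rule. The file places the brighter probe at 21459782 to 21459841 on chromosome 1, in a genome build that no source used here names; the promoter windows above are in GRCm38.p6, and the 2 sets of coordinates were not mixed.

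Gsta4, which has high activity on 4-hydroxynonenal, did not share this pattern in size. Its probe was spotted 10 times per array, so the scatter between spots can be read directly. The spots had a mean of 331 ± 24.9 (SD, 10 spots) for nonswimming, 393 ± 12.4 for swimming and 376 ± 13.1 for Chlorella. The ranges of spots, 270.0 to 361, 364 to 412 and 353 to 403, did not overlap between the nonswimming and swimming arrays and overlapped otherwise. These are spots of the same pooled RNA, and the ratio of 0.25 ± 0.20 is within 1.96 scanner errors.

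Mgst2, a membrane enzyme that can couple glutathione to leukotriene A4 and reduce lipid peroxides, had 106 on the nonswimming, 596 on the swimming and 130 on the Chlorella array. Its ratios were 2.49 ± 0.21 and -2.20 ± 0.21, the largest ratio of any measured member in the first comparison. Mgst1, an abundant transferase of the endoplasmic reticulum and mitochondria, had 3424, 5982 and 3072, with ratios of 0.81 ± 0.20 and -0.96 ± 0.20, under the 2-fold rule. With quantile normalization its ratio for Chlorella against normal food was -1.07, past that rule. The second Mgst1 probe gave 0.94 and -0.93. Mgst3 had 7177, 5345 and 6607, lowest on the swimming array, and its 3 probes gave between -0.43 and -0.32 for swimming against nonswimming. The 3 microsomal genes thus differed in direction, and Mgst2 and Mgst1 were close to their nonswimming level on the Chlorella array, with 0.29 ± 0.21 and -0.16 ± 0.20.

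Among glutathione peroxidases, Gpx3 is secreted into plasma, chiefly by the kidney and also by fat tissue. It had 3477 on the nonswimming, 7130 on the swimming and 3189 on the Chlorella array, with ratios of 1.04 ± 0.20 and -1.16 ± 0.20. With median centring the first ratio was 0.88, under the 2-fold rule. Gpx1, the cytosolic selenoenzyme that is abundant in red cells and liver, had 9843, 17126 and 11670, with ratios of 0.80 ± 0.20 and -0.55 ± 0.20. Both were highest on the swimming array, by more than 1.96 scanner errors. Gpx4, which reduces phospholipid hydroperoxides in membranes, had 18436, 18196 and 17041, and Gpx7, a peroxidase of the endoplasmic reticulum, 487, 447 and 455; all ratios of these 2 genes were within the spot error. Gpx2, known from gut epithelium, was dim at 12.3, 10.2 and 9.97. Gpx6 passed as well above background on the swimming array alone, at 7.90. Its bounds were 1.22-fold higher against the nonswimming array and 1.05-fold lower for the Chlorella array.

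In bulk muscle RNA, a different number of cells of a type and a different amount of RNA per cell cannot be told apart. Beside the genes described so far, markers of cells that are not muscle fibres had these values. All 7 measured kidney markers were higher on the swimming than on the nonswimming array by 2-fold or more, beside 5.14% of all genes. The summed scaled signal of the list's 11 genes was 1744 on the nonswimming, 11373 on the swimming and 2589 on the Chlorella array. Most of each sum came from the brightest gene of the array, with 1519, 9358 and 2164. The glomerular marker Nphs1 was not well above background on any array, and the tubule markers Slc12a1 and Slc12a3 were so only on the swimming array. Of 10 measured adipocyte markers 6 were higher by 2-fold or more in the first comparison, beside 5.14% of all genes. Their list's summed signal was 126909, 233158 and 149378 on the 3 arrays. The sums of erythrocyte markers were 17689, 47588 and 13918, and those of neutrophil markers 4874, 80822 and 1057. On the swimming array the brightest gene of each list alone had 42056 and 59203. By 2-fold or more in the first comparison, 5 of 6 measured erythrocyte markers and all 13 neutrophil markers were higher. The lowest erythrocyte ratio was -0.29. Eosinophil markers summed to 291, 5879 and 36.1, with 4883 of the swimming sum from the brightest gene, and B cell markers to 197, 2052 and 135. All 4 measured eosinophil and all 6 measured B cell markers were higher by 2-fold or more in the first comparison. Brown fat markers summed to 4141, 20098 and 10203, a sum carried by Cidea and Ucp1. Of the 7 genes in that list 2 were higher by 2-fold or more in the first comparison and 1, Zic1, was lower, beside 5.14% and 1.07% of all genes. The list's median was -0.06 in the first comparison and 0.17 in the second. The erythrocyte markers Epb42, Rhag and Add2 were not well above background on the nonswimming and Chlorella arrays. Liver markers summed to 11839, 12556 and 7734, with Cyp2e1 the largest part (3602, 6115 and 2765), and their median ratio was -0.48 in the first comparison and -0.43 in the second. Macrophage markers summed to 25124, 34615 and 13778, most of it Lyz2 (21067, 31093 and 11417), with medians of -0.16 and -0.61. No gene of these 2 lists passed 2-fold in the first comparison. The keratinocyte markers were highest on the nonswimming array (2310, 578 and 660). All 14 skeletal muscle markers were well above background on every array, with sums of 1790660, 1557030 and 1987470. The part of these cells in the ratios of Gsta1, Gsta2, Gsta3, Mgst2, Mgst1, Gpx1 and Gpx3 was not tested.

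The mu class transferases, which conjugate a wide range of electrophiles, include no gene that differed by 2-fold on these arrays. Gstm1 had 19199, 19838 and 22193 on the nonswimming, swimming and Chlorella arrays, and its 2 probes gave 0.05 and 0.02 for swimming against nonswimming. Gstm2, the muscle form of the class, had 7785, 7910 and 8234. Gstm3 had 12790, 14030 and 15342, and Gstm5 had 5881, 6527 and 6905. Gstm4 had 317, 397 and 430.0, and its ratio of 0.44 ± 0.20 for the Chlorella against the nonswimming array was the one ratio higher by over 1.96 scanner errors among the 50 measured in that pair, beside 12% of all genes. Gstm1 to Gstm5 all had their highest value on the Chlorella array, each within 0.5 of the nonswimming array on the log2 scale. Against the swimming array their ratios were 0.06 to 0.16, each within its error of 0.20. In that comparison 5 of 6 measured mu genes were above 0, and 2 of 6 with quantile normalization, so this order depends on the scaling. The mu median was 0.13 in the first comparison and -0.02 after median centring, and 0.10 in the second and -0.04 with quantile normalization. Gstm6 and Gstm7 were dim, at most 15.9 and 32.0. For Chlorella against normal food Gstm6 had a ratio of -0.53 ± 0.41, taken over its own dim signal on the Chlorella array, so it gives no minimum. Mu class genes are near copies of each other, and cross-hybridisation between them cannot be seen in these files.

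Of the other classes, Gstp1, the pi class enzyme, had 48121, 46458 and 52186 with a second probe of the same flat course (-0.02 and 0.11). The nearly identical Gstp2 cannot be told apart from it here. The mitochondrial and peroxisomal Gstk1 had 5880, 5760 and 6022, and Gsto1, an omega class reductase, 2889, 2804 and 2778. Gstt2 (theta class) had 241, 404 and 269, with ratios of 0.74 ± 0.20 and -0.59 ± 0.20. Gsto2, which reduces dehydroascorbate, had 42.7, 69.7 and 37.9, with ratios of 0.71 ± 0.21 and -0.88 ± 0.21. Gstz1, an enzyme of tyrosine breakdown, had 1326, 1639 and 1110, with a ratio of -0.56 ± 0.20 for Chlorella against normal food, and Gstt1 one of -0.49 ± 0.21 there. These 4 genes were highest on the swimming array, none by 2-fold, and Gstt3 stayed between 591 and 653.

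**Figure D2:**
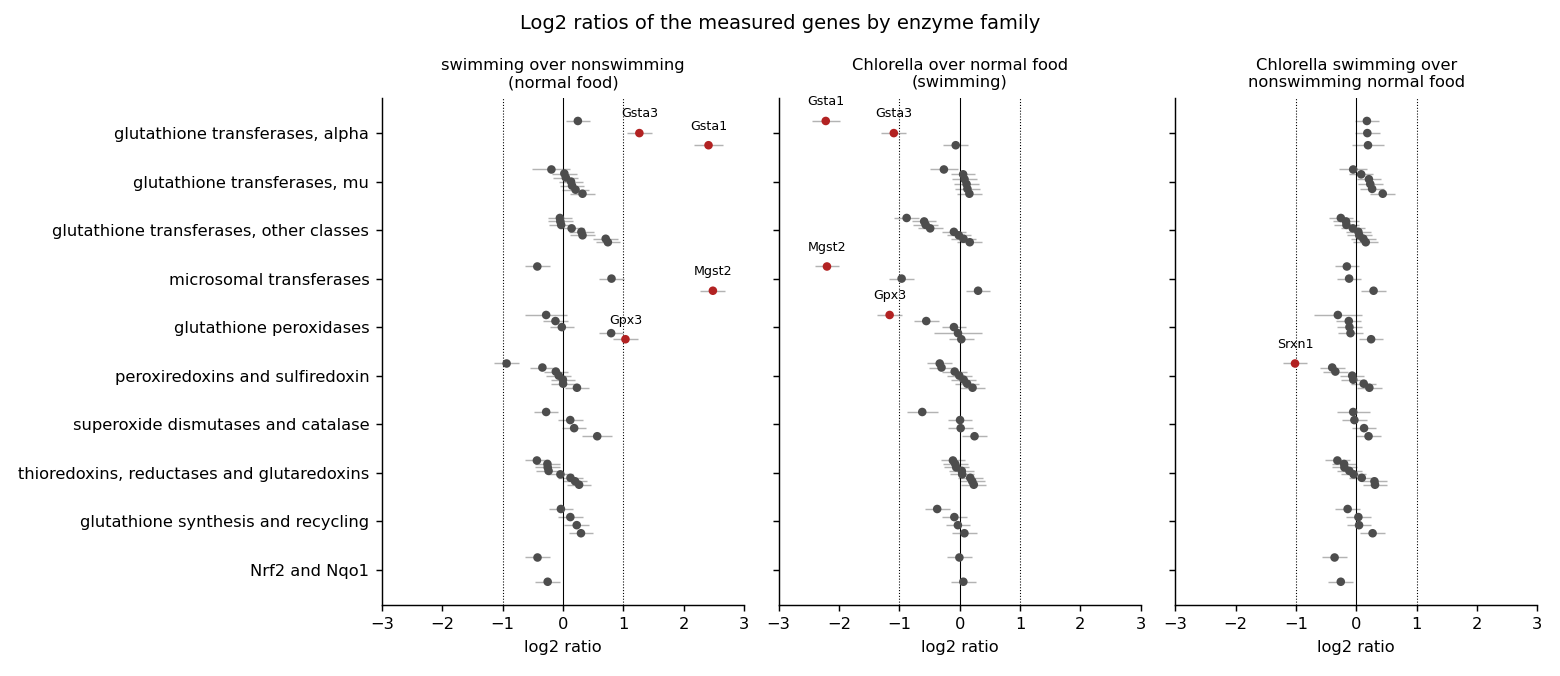
Log2 ratios of the measured genes by enzyme family in the 3 comparisons; bars are the scanner software's error, dotted lines mark 2-fold, and red points are the genes past it. Alpha class and microsomal transferases hold the widest spread in the first 2 comparisons, and in the outer pair all measured genes except Srxn1 lie within 0.5 of 0.

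Peroxiredoxins reduce peroxides by an active-site cysteine, and Srxn1 (sulfiredoxin) rescues them when that cysteine is overoxidised. Srxn1 had 2256 on the nonswimming, 1181 on the swimming and 1116 on the Chlorella array. Its ratios were -0.93 ± 0.20 for swimming against nonswimming, -0.08 ± 0.20 for Chlorella against normal food and -1.02 ± 0.20 in the outer pair. By this probe the nonswimming array stood highest, and the swimming and Chlorella arrays differed from each other by less than the spot error. Its other 2 probes gave -0.87 and -0.80 in the first comparison, 0.20 and 0.25 for Chlorella against normal food, opposite in sign to the brightest probe and within 1.96 scanner errors, and -0.68 and -0.55 in the outer pair, so the 2-fold call there rests on the brightest probe and on the mean over probes the ratio was -0.75. The file places the brightest probe at 151852040 to 151852099 on chromosome 2, and another at 151850306 to 151850365.

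None of the 6 peroxiredoxins themselves reached 2-fold. Prdx2, abundant in red cells and muscle, was measured by 3 probes, one of them spotted 10 times, whose spots had a mean of 26325 ± 1197 (SD, 10 spots) on the nonswimming, 24261 ± 1069 on the swimming and 25412 ± 858 on the Chlorella array. The spots overlapped between all 3 arrays, and the 3 probes gave between -0.12 and -0.07 in the first comparison. Prdx3, the mitochondrial form, had 7733, 7729 and 8421, and Prdx6, which uses glutathione, 5084, 5091 and 5906. Prdx1, the major cytosolic form, had 9730, 9272 and 7377, lowest on the Chlorella array with -0.33 ± 0.20 against the swimming array. Prdx5 had 5502, 4344 and 4325, with -0.34 ± 0.20 in the first comparison. Prdx4, the form of the secretory pathway, had 802, 942 and 765.

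Superoxide dismutases and catalase had no ratio of 2-fold or more by their brightest probes. Sod1, the copper-zinc enzyme of the cytosol, had 32433, 36887 and 37333, and Sod2, the manganese enzyme of mitochondria, 50017, 41239 and 48934. Catalase (Cat), the peroxisomal enzyme, had 1965, 2137 and 2148. The largest ratio of these 3 genes was -0.28 ± 0.20, that of Sod2 in the first comparison. The extracellular Sod3 was dim, at 17.6, 26.1 and 17.0, with ratios of 0.57 ± 0.25 and -0.62 ± 0.26. A further Sod1 probe, designed on a cDNA clone and spotted 10 times, had no spot well above background on any array, and another dim one, at 13.8, 30.8 and 16.7, gave a ratio of 1.16 where the brightest gave 0.19.

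The thioredoxin system held no gene past 2-fold either. Txnrd1, the cytosolic reductase and a known Nrf2 target, had 6170, 4574 and 5383, with -0.43 ± 0.20 and 0.23 ± 0.20. Txn2, the mitochondrial thioredoxin, had 12753, 10705 and 12373, and its 2 probes gave -0.25 and -0.33 in the first comparison. Both genes had their lowest value on the swimming array. Txn1 had 3408, 3918 and 3628, Txnrd2 731, 880 and 906, and Txnrd3 505, 490 and 466. Of the glutaredoxins, which reduce protein-glutathione mixed disulfides, Glrx had 3265, 2731 and 2627 and Glrx2 4464, 4868 and 5500. Glrx5, which serves iron-sulfur cluster assembly, had 16141, 13682 and 14027. Of these 8 genes, Txnrd1 alone differed by over 1.96 scanner errors in the main scaling, lower in the first comparison, beside 8.7% of all genes.

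Glutathione is made by glutamate-cysteine ligase, of a catalytic (Gclc) and a modifier (Gclm) subunit, and by glutathione synthetase (Gss). Gclc had 346, 338 and 357 and Gclm 76.3, 83.0 and 78.1, all within the spot error. Gss had 355, 416 and 321, with -0.37 ± 0.20 for Chlorella against normal food. The 3 probes of Gsr gave between 0.14 and 0.30 in the first comparison. None of these 4 genes differed by over 1.96 scanner errors in any comparison, where 8.7% to 12.3% of all genes did in each direction.

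Nqo1, a quinone reductase and a common readout of Nrf2 activity, had 629 on the nonswimming, 527 on the swimming and 526 on the Chlorella array. Nfe2l2 itself had 2564, 1914 and 1998, with -0.42 ± 0.20 in the first comparison, and its next brightest probe gave -0.29. Both of these probes had their highest value on the nonswimming array, with no ratio of 2-fold. A pair of dim probes, designed on cDNA clones and lying at other positions on chromosome 2, at 75535606 to 75535665 and at 75544410 to 75544469, went the other way in the outer pair, at 1.49 and 0.79. Their scaled signals were 12.01, 19.9 and 33.6 for the first and 35.5, 34.3 and 61.6 for the second, and the brightest probe lies at 75519430 to 75519489. Which transcripts these clones stand for was not analysed here.

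**Figure D3:**
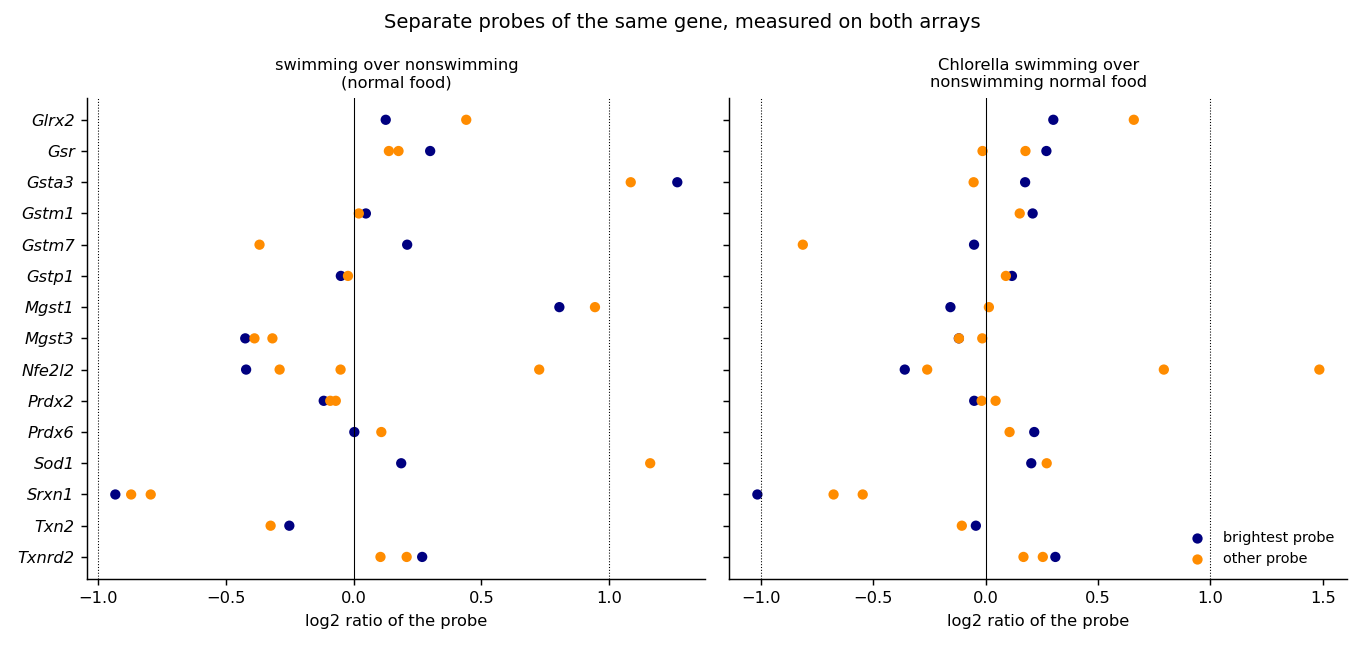
Log2 ratios of separate probes of the 15 genes with more than 1 measured probe, for swimming over nonswimming and for the outer pair; each point is a probe, blue for the brightest and orange for the others, and dotted lines mark 2-fold. The probes of Srxn1, Gsta3 and Prdx2 lie close together in the first panel, whereas those of Nfe2l2 and Sod1 spread widely.

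Across all members, 9 of 51 genes were higher by over 1.96 scanner errors on the swimming than on the nonswimming array, 17.6% beside 12.3% of all genes, and 4 were lower, 7.84% beside 8.7%. The 9 were Gsta1, Gsta3, Gsto2, Gstt2, Mgst1, Mgst2, Gpx1, Gpx3 and Sod3, and the 4 were Srxn1, Mgst3, Txnrd1 and Nfe2l2. For Chlorella against normal food, 11 of 50 were lower, 22% beside 12.3%, and none was higher, beside 11.5% of all genes. The 11 were Gsta1, Gsta3, Gsto2, Gstt1, Gstt2, Gstz1, Mgst1, Mgst2, Gpx1, Gpx3 and Sod3. In the outer pair 1 gene was higher and 1 lower, each 2%, beside 12% and 10.1% of all genes. These counts, and the statements by scanner error on single genes above, hold for the main scaling and were not repeated with the alternatives. Median centring shifted the median of all genes by -0.15 in the first comparison and 0.13 in the second, so genes near the limit could change sides. Such genes in the first included Prdx5 (-0.34 ± 0.20), Sod3 (0.57 ± 0.25), Sod2 (-0.28 ± 0.20), Glrx (-0.26 ± 0.20), Txn2 (-0.25 ± 0.20) and Nqo1 (-0.25 ± 0.20). In the second they included Gstt1 (-0.49 ± 0.21), Sod3 (-0.62 ± 0.26) and Mgst3 (0.31 ± 0.20), which could become higher with Chlorella. Prdx1 (-0.40 ± 0.20) lay at the limit in the outer pair. The median log2 ratio of the measured members was 0.12, -0.02 and -0.04 in the 3 comparisons, beside -0.04, 0.08 and 0.04 over all genes, and after median centring the first was -0.03 and the second 0.11. Of the 50 genes measured on all arrays, 78% spanned less than 0.5 on the log2 scale over the 3 arrays, beside 69.8% of 15269 genes, and 10% spanned at least 1, beside 9.16%.

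Other genes of these pathways were taken from 7 lists. The NADPH supply list holds enzymes that make NADPH, which feeds both glutathione and thioredoxin reduction. It also holds others, such as Tkt, that do not make NADPH themselves. The list had 4 of 14 measured genes higher after swimming by 2-fold or more and 4 lower with Chlorella, beside 5.14% and 4.86% of all genes. Its medians were 0.39 and -0.42, beside -0.04 and 0.08 for all genes. Tkt, transketolase, had 4766, 29776 and 12826 on the nonswimming, swimming and Chlorella arrays, with 2.64 ± 0.20 and -1.22 ± 0.20. G6pdx, the first enzyme of the pentose phosphate pathway, had 680.0, 1795 and 702, and Pgd, which follows it, 731, 2184 and 1012. Aldh1l1, which makes NADPH from folate, had 486, 1162 and 568. These 4 were the genes past 2-fold in both comparisons, and all had their highest value on the swimming array. In the outer pair Tkt was 1.43 ± 0.20 higher, the one gene of 14 past 2-fold, beside 2.07% of all genes higher. Mthfd2, a folate enzyme of mitochondria, had 44.8, 41.4 and 66.3, under 2-fold. Malic enzyme Me1, a lipogenic enzyme of fat and liver, had 8230, 11332 and 8294.

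Among Nrf2 partners and inhibitors, Maff, a small Maf protein, had 433, 363 and 2619, with 2.85 ± 0.20 for Chlorella against normal food and 2.60 ± 0.20 in the outer pair. It was the one gene of 12 measured that passed 2-fold in each, beside 1.37% and 2.07% of all genes higher. Under 2-fold for Chlorella against normal food, Mafk had 0.90 ± 0.20, Bach1, a repressor at the same elements, 0.84 ± 0.20, Mafg 0.59 ± 0.20 and Keap1 0.26 ± 0.20. The list's median there was 0.33 beside 0.08 for all genes. Nfe2, the erythroid relative of Nrf2, had 20.7, 236 and 4.95, dim on the Chlorella array. Its ratio of 3.51 ± 0.24 was the one past 2-fold among 13 in the first comparison, beside 5.14% of all genes higher. Sqstm1, the autophagy receptor p62 that binds Keap1, had 45766, 33967 and 43758.

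Other Nrf2 target genes had medians of 0.09 and -0.09, with 2 of 18 higher by 2-fold or more in the first comparison, beside 5.14% of all genes, and 3 lower in the second, beside 4.86%. Ugt1a6b, a glucuronosyltransferase, had 357, 778 and 231, and Blvrb, biliverdin reductase B of red cells, 197, 398 and 214. Both were highest on the swimming array, with 1.13 ± 0.20 and 1.01 ± 0.20 against the nonswimming array. Abcc3, an exporter of conjugates, had 32.6, 54.3 and 20.0 and Akr1c13, an aldo-keto reductase, 47.4, 88.02 and 34.1, with -1.44 ± 0.25 and -1.37 ± 0.22 for Chlorella against normal food. Ugt1a6b had -1.75 ± 0.20 there, and Cbr3, a carbonyl reductase, -0.68 ± 0.20. Hmox1, heme oxygenase, had 438, 788 and 588, under 2-fold. Slc7a11, which imports cystine for glutathione synthesis, was well above background only on the Chlorella array, at 29.2. Its bounds there were 5.21-fold over the swimming array and 4.52-fold over the nonswimming array. Ferritin heavy chain, Fth1, had 110320, 104447 and 119606.

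In the list of glutathione export, breakdown and salvage, 3 of 19 genes were higher by 2-fold or more and 1 lower in the first comparison, beside 5.14% and 1.07% of all genes. In the second, 3 of 18 were lower, beside 4.86%. Ggt1, the gamma-glutamyltransferase known from kidney tubules, had 22.7, 110.3 and 27.0, with 2.28 ± 0.23 and -2.03 ± 0.23. Chac1, which degrades glutathione inside cells and is a target of the integrated stress response, had 8540, 3723 and 7379, with -1.20 ± 0.20 and 0.99 ± 0.20. Chac1 was thus lowest on the swimming array, opposite to Ggt1. Slc1a5, a glutamine transporter, had 2534, 4282 and 1759, with -1.28 ± 0.20 in the second comparison. Cbs, which starts the route from homocysteine to cysteine, had 12.1, 24.5 and 10.1, and the dipeptidase Dpep2 had 7.33, 20.1 and 2.52, dim on the Chlorella array. Both were at the low end of what these arrays measure. Dpep1, a renal dipeptidase, had 757, 763 and 574, and Slc1a4, a neutral amino acid transporter, 21.7, 22.4 and 14.0.

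No gene of 19 in the list of thioredoxin-related and methionine sulfoxide repair genes, and none of 15 measured selenoproteins, reached 2-fold in any comparison. Sesn2, a sestrin, had 234, 408 and 422, with ratios of 0.80 ± 0.20 and 0.85 ± 0.20 against the nonswimming array. Txndc5, an oxidoreductase of the endoplasmic reticulum, had 1590, 1033 and 967, with -0.62 ± 0.20 and -0.72 ± 0.20 against it. The methionine sulfoxide reductases Msrb1 (a selenoprotein, counted in both lists), Msrb2 and Msrb3 had ratios from 0.36 to 0.41 in the second comparison. Selenop, the selenium carrier of plasma, had 16648, 17866 and 12209, lowest on the Chlorella array with -0.55 ± 0.20 against the swimming array. Selenot (-0.51 ± 0.20) and the deiodinase Dio2 (0.53 ± 0.20) came next there, and Dio3 (0.58 ± 0.24) and Sephs2 (0.50 ± 0.20), which makes selenophosphate, led the first comparison. Of the enzymes that produce oxidants, 8 of 18 were higher after swimming by 2-fold or more and 8 of 16 lower with Chlorella, beside 5.14% and 4.86% of all genes. In the second comparison 1 was higher, beside 1.37%, and the list's medians were 0.77 and -0.84. Mpo, myeloperoxidase, had 258, 3369 and 32.4, and is also a member of the neutrophil marker list. Epx, eosinophil peroxidase, a marker too, had 9.24, 183 and 1.53, dim on the Chlorella array. Of the phagocyte NADPH oxidase, Cybb had 34.3, 106 and 34.7, Cyba 281, 411 and 202, Ncf1 27.9, 58.6 and 13.98, Ncf4 339, 883 and 195, and its switch Rac2 130.1, 539 and 77.2. All of these were highest on the swimming array, as the neutrophil markers were, and the part of those cells was not tested. Nox4, an oxidase known from kidney and vessels, had 36.3, 79.9 and 31.9, and Aoc3, an amine oxidase of fat and vessels, 445, 1128 and 716. Duox1, an epithelial oxidase, had 61.4, 36.4 and 29.7, with -1.05 ± 0.22 in the outer pair. Nos1, the muscle nitric oxide synthase, went the other way at 2277, 1237 and 2549, with -0.88 ± 0.20 and 1.04 ± 0.20.

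**Figure D4:**
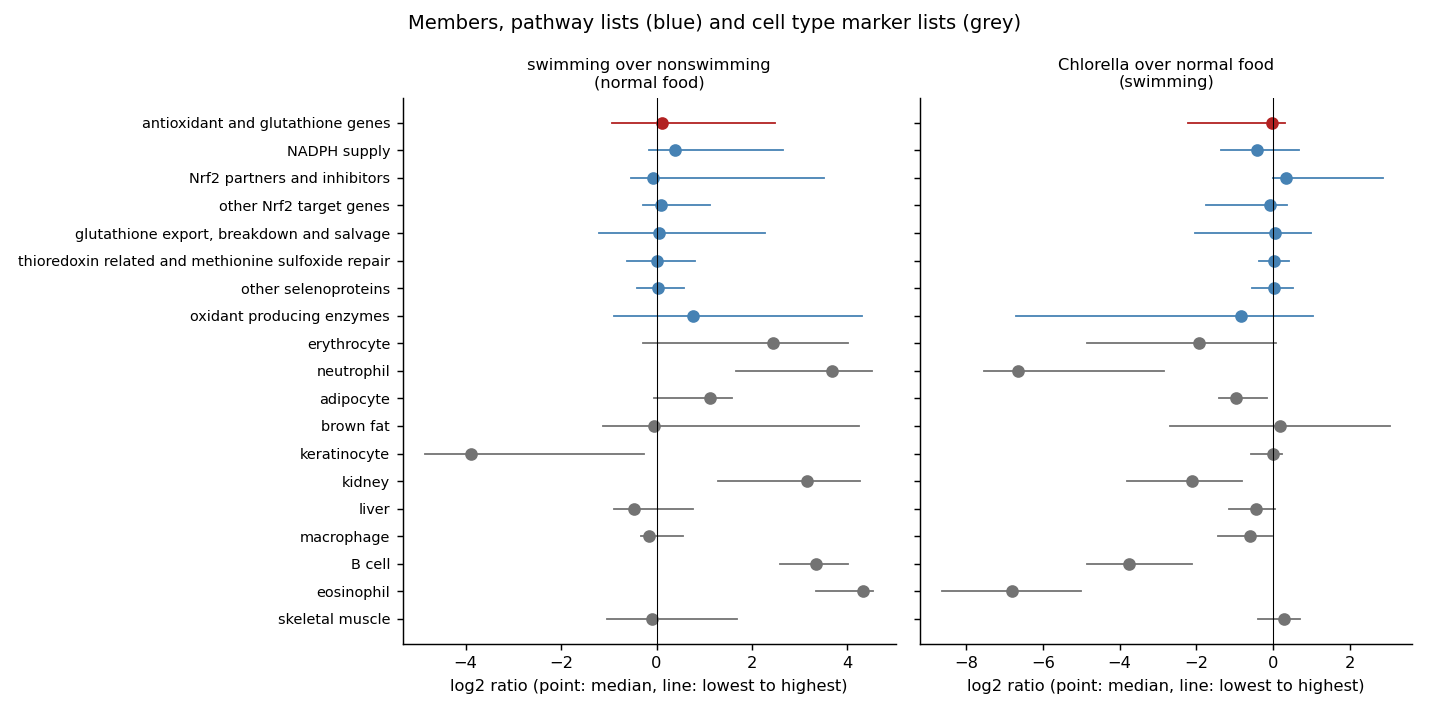
Median log2 ratio (point) and lowest to highest ratio (line) of the measured antioxidant and glutathione genes (red), 7 pathway lists (blue) and 11 cell type marker lists (grey). The 2 panels show swimming over nonswimming on normal food and Chlorella over normal food in swimming mice. The antioxidant median lies at 0.12 and -0.02, while kidney, neutrophil, B cell and eosinophil markers lie far from 0 in opposite directions in the 2 panels.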

How the data were processed

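Per the labels' protocols, RNA of 10 mice per group was pooled and labelled with Cy3. The submitters' processing notes name Agilent Feature Extraction 9.5 for the scans. The intensity used is its deposited processed signal, from which background was subtracted, with an error whose multiplicative part is 10% per the file headers, and flags. The arrays share 1 slide and 1 scan. The authors' deposited value table holds log2 values of 13683 spots. Its differences between arrays correlated with those of the scanner files at r of 0.76, 0.82 and 0.71 over 13670 probes, so the directions were mostly shared and part of the spots differed. A correlation does not fix the scale, but in the first comparison this table gave 1.05 for Gpx3, 2.42 for Gsta1 and 2.49 for Mgst2. The centre of each probe stays unknown. Column medians were 0.008, -0.005 and 0.010.

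Control spots and outlier spots were left out, spots of a probe averaged, and log2 signals scaled to each array's 75th percentile (285.9, 295.0 and 237.8). Between 23448 and 24857 of 41169 probes were well above background per array, and no probe was saturated. Genes were named through RefSeq accessions of GRCm38.p6 (70 member probes) or symbols (12). Genes were counted by size (2-fold) and never tested, since each group has 1 array, which limits the precision. For a gene dim on 1 array, the fold is a bound: its bright signal over the lowest signal that passed as well above background on the other array, or over its own dim signal if that is higher. In the latter case the fold is the plain ratio and not a minimum. In the former it is no strict minimum either, since some probes above that lowest signal did not pass. A Prdx6 probe at 7.62 on the nonswimming array, where the lowest passing signal was 6.45, is an example. The members, lists and naming rule (members past 2-fold or bounded there and the brightest of each family in full, the rest in short; of each pathway list the genes past 2-fold and the 3 farthest from 0 per comparison) were chosen with earlier results of these data known. Alternatives were quantile normalization, median centring, normexp (limma 3.58.1, offset 50), use of dim probes, averaging a gene's probes, and the authors' table. Scripts in Python 3.11.15 were tested on simulated data. Some genes of the lists are not reported here by name.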

Additional observations from a re-analysis of the deposited data

How the results depend on the processing

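Of 54 counts by 2-fold and medians over the 6 alternatives, 51 kept their value within 1.5 times or within the spot error. The exceptions were the count of members at least 2-fold lower in swimming against nonswimming, which was 1 with median centring, where Srxn1 passed at -1.09, and the same count in Chlorella swimming against nonswimming, which was 0 with the mean over probes and with the authors' value table, which does not hold the brightest Srxn1 probe. Of 84 ratios of Gsta1, Gsta3, Mgst2, Gpx3 and Srxn1, 79 moved by less than their spot error and none changed sign when called. The 5 that moved further were those of Gsta1 (1.01 and -0.87) and Mgst2 (1.92 and -1.68) with normexp, whose offset shrinks the ratios of dim probes, and that of Srxn1 (-0.75) with the mean over probes. Median centring shifted the median of all genes by -0.15 and 0.13 in the first 2 comparisons, and leaving out the filter by -0.10 and 0.12. No paired analysis was possible because each group has 1 array, and no array could be left out for the same reason. Dim members, such as Gsta1, Gstm7, Gpx2 and Sod3, are limited by their signal over background.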

Other observations

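The names in the scanner files are those of the array's design, and 4 genes whose current symbol has the same form were left out by the rule for that reason. Glrx3, named Txnl2 there, is a cytosolic glutaredoxin of iron handling and had scaled signals of 14078, 15512 and 15902 on the nonswimming, swimming and Chlorella arrays. Gpx8, a peroxidase of the endoplasmic reticulum, had 1356, 1989 and 1259, with ratios of 0.55 and -0.66, highest on the swimming array. Gstp3 and Gstt4 were not well above background on any array.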
